A study of Rattus norvegicus with 24 samples.

Results

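The 4 transcripts described here mark astrocytes and were followed through 3 reward regions of the rat brain, namely Gfap (ENSRNOG00000002919), Aqp4 (ENSRNOG00000016043) and the glutamate transporter genes Slc1a2 (ENSRNOG00000005479) and Slc1a3 (ENSRNOG00000016163). They were chosen by name, as a filament gene, a water channel gene and the main astrocytic glutamate carriers, and are 4 of the 17323 genes in the count table. All 4 passed the filter on low counts that left 16289 genes to be tested.

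RNA-seq was performed on 8 male F1 rats, each of which gave 3 libraries: 1 from the ventral tegmental area (VTA), 1 from the nucleus accumbens core (NAc core) and 1 from its shell (NAc shell), 24 in all. The rats came from reciprocal crosses of F344 (Fischer) with BN (Brown Norway), both inbred. In cross A the father was F344 and the mother BN (replicates 1, 2, 11 and 15), and in cross B the strains of the parents were exchanged (replicates 3, 4, 13 and 16). By the sample labels, 2 rats of each cross had been given 0.4 mg/kg nicotine daily for 4 days (replicates 1, 2, 3 and 4) and 2 saline (replicates 11, 13, 15 and 16), a step that the published methods leave out for rats of this experiment. Afterwards all 8 rats had nicotine by vein in 6 sessions of 10 infusions, each infusion of 30 µg/kg. By the paper, they self-administered it by pressing a lever, and passive infusions made up the number. Cross A was more inclined to self-administer than cross B, so cross and active intake cannot be told apart here. Tissue was taken on day 15. No nicotine-naive group is compared here, so no effect of nicotine itself can be read from these libraries, and the saline rats differ from the others in the earlier injections. The age of the rats was not given in the sources used here. The paper compared the crosses both as rats inclined and disinclined to self-administer and for an effect of which strain was the father.

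Astrocytes are glial cells that wrap synapses and blood vessels, clear transmitter and potassium from the space around neurons, and move water between tissue and vessels. GFAP is the intermediate filament protein of the astrocyte skeleton, and its level is known to vary widely between brain regions and to rise when astrocytes react to injury. AQP4 is the water channel of astrocyte endfeet, the processes that cover blood vessels. Slc1a2 encodes GLT-1 (EAAT2) and Slc1a3 encodes GLAST (EAAT1), the sodium-driven carriers with which astrocytes remove glutamate from the synapse. Neither pair is a measure of cell number: in bulk tissue, more astrocytes and more RNA per astrocyte cannot be told apart.

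Upstream sequences are shown for Gfap and Aqp4, which differed between regions in the same direction, and for Slc1a3, which differed in the opposite one. Each is the 250 bases before the first RefSeq start on build GRCr8, 5′ to 3′ on the gene's strand, and all 3 genes lie on the minus strand (Gfap at chr10:88361662-88361911, Aqp4 at chr18:6798843-6799092, Slc1a3 at chr2:59557809-59558058). The counts were made on another build, so these positions describe the sequence and not the counts. Capitals mark the letters TTGGC or GCCAA, a half-site of the NFI factors.
Gfap: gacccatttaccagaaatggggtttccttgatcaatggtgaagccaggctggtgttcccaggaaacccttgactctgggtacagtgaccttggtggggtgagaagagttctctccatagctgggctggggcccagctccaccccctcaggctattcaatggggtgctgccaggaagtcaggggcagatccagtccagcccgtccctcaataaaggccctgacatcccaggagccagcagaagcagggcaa
Aqp4: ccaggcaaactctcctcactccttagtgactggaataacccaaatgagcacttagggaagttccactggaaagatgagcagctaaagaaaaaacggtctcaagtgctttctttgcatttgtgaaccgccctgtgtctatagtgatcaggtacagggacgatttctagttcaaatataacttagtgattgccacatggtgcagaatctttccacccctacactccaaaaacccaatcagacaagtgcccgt
Slc1a3: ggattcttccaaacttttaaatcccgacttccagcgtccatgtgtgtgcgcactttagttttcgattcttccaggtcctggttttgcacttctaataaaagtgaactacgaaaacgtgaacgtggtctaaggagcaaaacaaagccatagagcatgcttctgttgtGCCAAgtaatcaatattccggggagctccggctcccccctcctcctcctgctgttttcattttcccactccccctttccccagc

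The Gfap window is 57.6% G or C with 1 CG pair, the Aqp4 window 44.8% with 4 and the Slc1a3 window 48.0% with 9, against a median of 51.2% and 5 CG pairs over 33465 rat windows of the same length. The first Slc1a2 window, at chr3:109459859-109460108 on the plus strand, stands apart from these 3 with 71.2% G or C and 33 CG pairs. Both strands were searched for a TATA box (TATAAA, in 12.9% of all windows), a STAT element (TTCNNNGAA, 7.67%), an AP-1 element (TGANTCA, 6.34%) and the NFI half-site (40.3%). The windows of Gfap and Aqp4 hold none of the 4 motifs as spelled. The Slc1a3 window holds 1 half-site, 84 bases before the start. A match is a description of letters and says nothing about binding, and the absence of one concerns these letters in this window alone.

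The libraries held 17563458 to 24405856 estimated counts. Levels are given as CPM, the counts of a gene relative to the library's total, with TMM scaling, a normalization that aligns the bulk of genes between libraries, and are compared for one gene at a time because no per-length scale was available. The members rested on at least 9667 counts for Gfap, 5687 for Aqp4 and 9207 for Slc1a3 in every library, but on only 256 to 612 for Slc1a2. The labelled tissue was checked against marker genes. The 6 dopamine neuron genes summed to 1610 to 3090 CPM in 7 VTA libraries and to 65.6 CPM in VTA cross A replicate 2, which is 2.81% of the mean of the other 7, although the 10 medium spiny neuron genes separated it from the NAc like any other VTA library (346 CPM, against 2126 or more in each NAc library). Its oligodendrocyte and microglia sums were 60.9% and 59.0% of the mean of the other VTA libraries. Choroid plexus genes summed to 2678 CPM in this library and 15462 CPM in VTA cross A replicate 1, against at most 19.9 CPM in any NAc library and 6.85 CPM in the other 6 VTA libraries. The VTA values that rest on VTA cross A replicate 2 are therefore also given without it. In the region tests, leaving out rat 1 kept 4 of 4 members called between core and VTA and 3 of 4 between shell and VTA (edgeR, adjusted p under 0.05).

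Gfap was far higher in the VTA than in either part of the NAc. In the NAc core its level in cross A was 578, 530.3, 758 and 619.7 CPM (replicates 1, 2, 11 and 15) and in cross B 601, 638, 638 and 558 CPM (replicates 3, 4, 13 and 16). In the NAc shell the values in the same order were 744, 854, 926 and 603 CPM in cross A and 614, 1051, 655 and 869.6 CPM in cross B. In the VTA they were 2748, 822, 2711 and 1665 CPM in cross A and 2526, 2713, 2689 and 2239 CPM in cross B. Replicate 2 of cross A stood alone at the bottom of the VTA, inside the range of the shell, and the other 7 VTA libraries lay above every NAc library. The mean went from 615 ± 69.3 CPM (SD, n = 8) in the core through 790 ± 162 CPM in the shell to 2264 ± 689 CPM in the VTA, or 2470 ± 397 CPM (n = 7) without replicate 2.

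Aqp4 followed the same order, with the core and the shell close together. Its level in the core was 369.6, 304, 464 and 357 CPM in cross A and 425, 441, 455 and 414 CPM in cross B. In the shell it was 386, 383, 474 and 399.7 CPM in cross A and 438, 539.7, 389.6 and 511 CPM in cross B. In the VTA it was 1082, 635, 1247 and 1102 CPM in cross A and 1145, 1229, 1372 and 1259 CPM in cross B. Every VTA library lay above every NAc library, and replicate 2 of cross A was again the lowest, at 52.7% of the mean of the other VTA libraries (33.3% for Gfap). The region means were 404 ± 55.4 CPM in the core, 440 ± 61.7 CPM in the shell and 1134 ± 223 CPM in the VTA (SD, n = 8 each), or 1205 ± 102 CPM (n = 7) without replicate 2.

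Slc1a3 ran the other way, with its lowest levels in the VTA. Its level in the core was 674, 687, 738 and 710.2 CPM in cross A and 642, 599, 645 and 653 CPM in cross B. In the shell it was at 699, 742, 676 and 684 CPM in cross A and 643, 656, 664 and 726 CPM in cross B. In the VTA it was at 473, 559, 474 and 563 CPM in cross A and 494, 447, 499 and 503 CPM in cross B. All VTA libraries lay below all NAc libraries, while core (599 to 738 CPM) and shell (643 to 742 CPM) overlapped. Slc1a3 was the steadiest of the 4 genes, with a coefficient of variation of 6.49% over 8 rats in the core, 5.02% in the shell and 8.13% in the VTA. Gfap had 11.3%, 20.5% and 30.4%, the last falling to 16.1% without replicate 2 of cross A.

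Slc1a2 rested on few counts in these libraries, and was highest on average in the core. How fully the counting annotation covers its transcript was not tested, so its level is not read as that of GLT-1 in this tissue. In the core it was at 24.9, 22.3, 23.8 and 23.7 CPM in cross A and 23.7, 23.1, 21.0 and 19.7 CPM in cross B. In the shell it was at 20.0, 16.6, 17.1 and 21.0 CPM in cross A and 17.8, 19.0, 19.9 and 18.6 CPM in cross B. In the VTA it was at 11.4, 18.6, 12.5 and 25.8 CPM in cross A and 18.8, 14.6, 16.5 and 13.2 CPM in cross B. Both the lowest and the highest of the 24 values came from cross A in the VTA, where replicate 15 was higher than every NAc library and replicate 1 lower than all other libraries. The core sat mostly above the shell, and the VTA overlapped both.

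**Figure D1:**
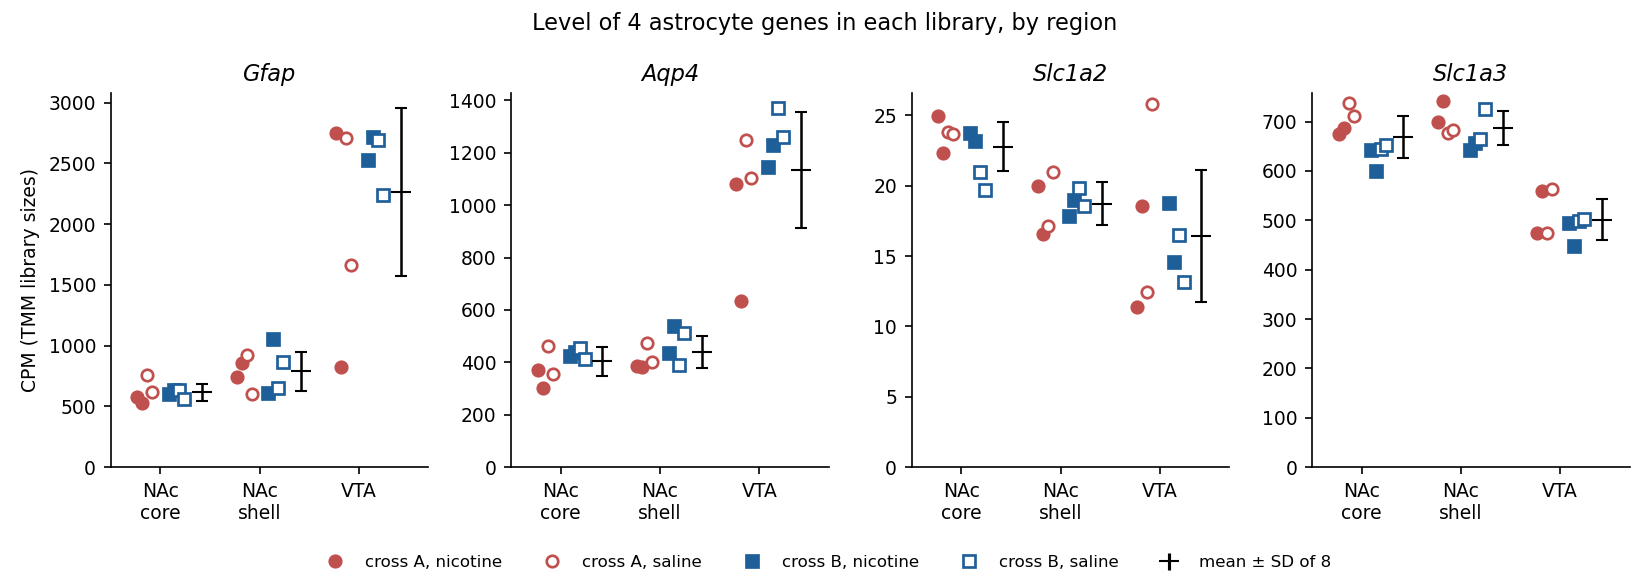
Level of each gene in CPM (y axis, from 0) in every library by region (x axis), with cross A as red circles and cross B as blue squares, filled for rats injected with nicotine and open for saline. The black dash and bar give the mean ± SD of the 8 libraries of a region. Gfap and Aqp4 are high in the VTA, apart from 1 low cross A library, Slc1a3 is low there, and the symbols of the crosses and injections are mixed within most regions.

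The first test asked whether the regions differ in these genes. Libraries of 1 rat were prepared in the same batch in all 3 regions, except the VTA libraries of replicates 2 and 16. All 4 genes differed between the NAc core and the VTA by edgeR's quasi-likelihood test with Benjamini-Hochberg adjustment, in a comparison that called 61.8% of all tested genes (30.7% higher and 31.1% lower in the core), so a call alone does not set the members apart. Gfap was 3.68-fold higher in the VTA by the means (log2 core over VTA -1.86 ± 0.19 SE, adjusted p = 1.62e-07, edgeR) and Aqp4 2.81-fold higher (-1.48 ± 0.13, adjusted p = 2.94e-08, edgeR). Slc1a3 was 1.33-fold higher in the core (0.43 ± 0.06, adjusted p = 4.39e-06, edgeR) and Slc1a2 1.39-fold higher (0.49 ± 0.14, adjusted p = 0.00449, edgeR). For Gfap, Aqp4 and Slc1a3 the 8 core and 8 VTA libraries did not overlap, as for 24.5% of all tested genes. Without replicate 2 of cross A in the VTA, the log2 differences were -1.99 ± 0.10 for Gfap, -1.56 ± 0.09 for Aqp4, 0.52 ± 0.14 for Slc1a2 and 0.45 ± 0.06 for Slc1a3, and all 4 calls held (adjusted p = 1.49e-11, 4.37e-11, 0.00360 and 1.20e-06, edgeR).

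Between the NAc shell and the VTA the filament and water channel genes and Slc1a3 kept these directions, and Slc1a2 did not pass the test. This comparison called 59.8% of all tested genes (29.3% higher and 30.5% lower in the shell). The log2 difference, shell over VTA, was -1.52 ± 0.20 for Gfap (adjusted p = 5.08e-06, edgeR), -1.37 ± 0.13 for Aqp4 (adjusted p = 8.30e-08, edgeR) and 0.45 ± 0.05 for Slc1a3 (adjusted p = 1.04e-06, edgeR). Slc1a2 had 18.7 ± 1.53 CPM in the shell and 16.4 ± 4.69 CPM in the VTA (0.19 ± 0.14, adjusted p = 0.233, edgeR). It passed when rat 15, its highest VTA library, was left out (0.29, adjusted p = 0.0340, edgeR). Without replicate 2 of cross A in the VTA the 4 values were -1.66 ± 0.13 for Gfap, -1.47 ± 0.08 for Aqp4, 0.20 ± 0.14 for Slc1a2 and 0.46 ± 0.05 for Slc1a3, with the same 3 calls. Aqp4 and Slc1a3 did not overlap between shell and VTA, as for 24.3% of all genes, and Gfap overlapped through replicate 2 of cross A alone.

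Within the nucleus accumbens the differences were small. Gfap was 1.28-fold higher in the shell (log2 core over shell -0.36 ± 0.10, adjusted p = 0.0201, edgeR) and Slc1a2 1.22-fold higher in the core (0.28 ± 0.06, adjusted p = 0.00527, edgeR), in a comparison that called 15.1% of all tested genes (7.88% higher and 7.21% lower in the core). Aqp4 (-0.13 ± 0.09, adjusted p = 0.396) and Slc1a3 (-0.04 ± 0.04, adjusted p = 0.605) did not pass edgeR's test. The core and shell overlapped for all 4 genes (3.27% of all genes did not overlap). The Gfap call was lost when rat 2, 4 or 16 was left out (log2 -0.32, -0.30 and -0.32, adjusted p = 0.0743, 0.0570 and 0.0749, edgeR). In order of level, therefore, Gfap ran from VTA through shell to core, Aqp4 and the reverse order of Slc1a3 separated the VTA from an unresolved core and shell, and Slc1a2 was above the others in the core, with shell and VTA unresolved.

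**Figure D2:**
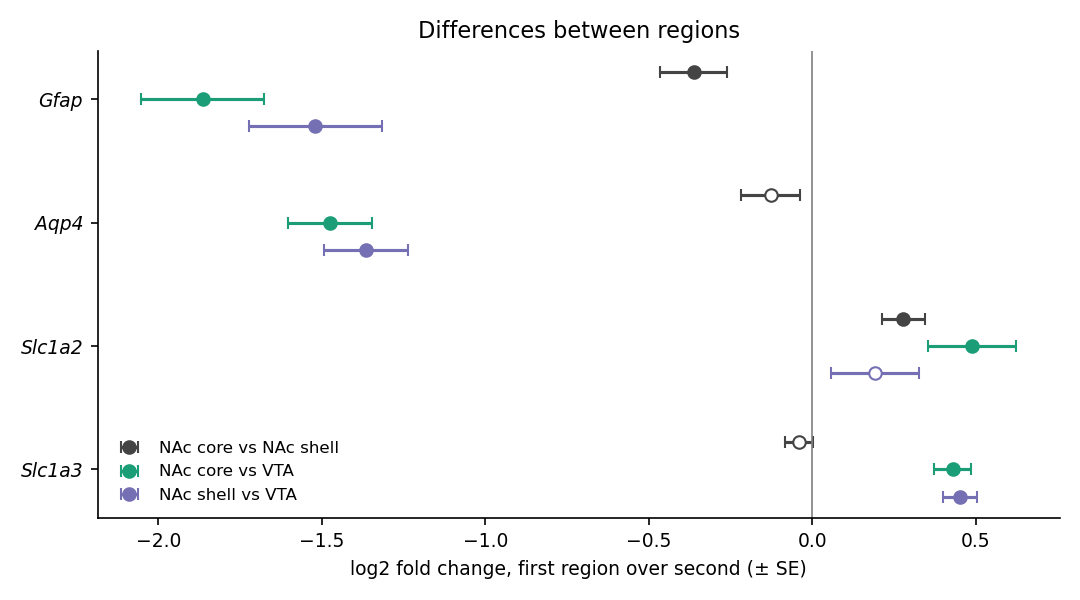
Log2 fold change ± SE (x axis) of each gene (y axis) in the 3 comparisons of regions (colours), each from 8 libraries against 8. Filled points have an adjusted p under 0.05 in edgeR. Gfap and Aqp4 lie far below 0 against the VTA (-1.86 and -1.48 for the core), Slc1a3 lies above 0 at 0.43 and 0.45, and the differences between core and shell are all within 0.36 of 0.

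Among other genes of astrocyte function, more differed in the direction of Gfap and Aqp4 than in that of Slc1a3. In 4 lists of 68 tested genes, 47 were lower and 7 higher in the core than in the VTA, where 31.1% of all tested genes were called lower and 30.7% higher, and 35 were lower and 7 higher in the shell than in the VTA, where the shares were 30.5% and 29.3% (edgeR, adjusted p under 0.05). The other 14 and 26 did not pass. Of the 11 genes for water, ion and junction functions, 10 were lower in the core than in the VTA (median log2 -0.91, against -0.01 over all tested genes). Kcnj10, the inward rectifier Kir4.1 through which astrocytes take up potassium, had 4.62 ± 2.46 CPM in the core and 28 ± 10.4 CPM in the VTA (log2 -2.57 ± 0.30, adjusted p = 8.09e-07, edgeR). Slc4a4, a sodium bicarbonate cotransporter, had 10.5 ± 3.01 CPM in the core and 36.1 ± 13.7 CPM in the VTA (SD, n = 8, log2 -1.76). Dmd, the dystrophin gene, was the member of this list that did not pass.

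Of the 8 other genes of glutamate and glutamine handling, 4 were lower in the core than in the VTA and none higher (median log2 -0.33), beside 31.1% of all genes lower, and the other 4 did not pass. Those lower were Glul (glutamine synthetase), Glud1 (glutamate dehydrogenase), the cystine-glutamate exchanger Slc7a11 and the neutral amino acid carrier Slc1a5, a family relative of the members. Slc1a5 had 4.69 ± 0.924 CPM in the core and 9.81 ± 2.37 CPM in the VTA (log2 -1.05, adjusted p = 3.87e-05, edgeR), and Slc7a11 had 55.2 ± 6.94 CPM and 76.7 ± 22.3 CPM (-0.46, adjusted p = 0.0182, edgeR). Against the shell, 4 of the 8 were again lower outside the VTA, beside 30.5% of all genes lower. Slc1a6, the neuronal carrier EAAT4, took the place of Slc7a11 (log2 -0.54, adjusted p = 0.00165, edgeR). Its level was low, at 3.12 ± 0.63 CPM in the shell and 4.53 ± 0.40 CPM in the VTA (SD, n = 8).

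Of 29 identity genes of astrocytes, 17 were lower and 7 higher in the core than in the VTA (median log2 -0.41), where 31.1% of all tested genes were lower and 30.7% higher, so the count of higher genes was no more than that share. Ednrb, the endothelin B receptor, stood at 6.48 ± 1.99 CPM in the core and 40.0 ± 13.1 CPM in the VTA (log2 -2.61, adjusted p = 2.11e-08, edgeR), and Acot11, an acyl-CoA thioesterase, was also lower in the core (log2 -2.22). In the other direction Fam107a had 889.6 ± 121 CPM in the core and 170.1 ± 123 CPM in the VTA (log2 2.40, adjusted p = 8.88e-07, edgeR), and the chemokine gene Cxcl14 had 139 ± 12.5 CPM and 76.0 ± 11.3 CPM (0.89, adjusted p = 7.23e-08, edgeR). The 7 genes higher in the core were Cldn10, Cxcl14, Gli3, Slc13a5, Mfge8, Mt3 and Fam107a.

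Genes of reactive astrocytes and filaments, the group to which Gfap belongs by function, were lower in the core than in the VTA in 16 of 20 cases and higher in none (median log2 -0.69). The ceruloplasmin gene Cp had 12.6 ± 2.09 CPM in the core and 32.9 ± 17.4 CPM in the VTA (-1.38), and S100a10, a partner of annexin A2, had 18.4 ± 4.01 CPM and 48.1 ± 10.9 CPM (-1.37). Against the shell 8 of the 20 were lower outside the VTA, which became 15 of 20 without replicate 2 of cross A, a library whose summed level over this list was 44.7% of the mean of the other VTA libraries. The share of all genes called in the fit without that library is not given, so this rise is not read as particular to the list. VTA cross A replicate 1, the library with 15462 CPM of choroid plexus genes, had the highest reactive and filament sum in the VTA (1165 CPM, against 440.1 to 943 CPM in the 6 libraries besides it and replicate 2) and the lowest general neuron sum (4933 CPM). Without rat 1 the list gave 13 of 20 lower in the core and 5 of 20 lower in the shell than in the VTA. With all rats, 31.1% and 30.5% of all tested genes were lower, and 5 of 20 is no higher than the second share. The shares in the fits without rat 1 are not given, so these counts have no share of their own fit beside them. Cp no longer passed against the shell without rat 1 (adjusted p = 0.102, edgeR). The part of that library's other tissue in the list was not tested. Fbln5, an extracellular matrix gene, was among the 8 (-0.94, adjusted p = 0.00315, edgeR). Without the VTA library of cross A replicate 2, the water, ion and junction, glutamate and identity lists gave 10 of 11, 4 of 8 and 18 of 29 genes lower in the core, again with no share over all genes for that fit.

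Marker genes of other cell types were counted in the same way, and their part in the astrocyte values was not tested. All 15 oligodendrocyte genes were lower in the core and in the shell than in the VTA (median log2 -1.43 and -1.55), with summed levels of 11526 to 17640 CPM in the core, 9174 to 14921 CPM in the shell and 24069 to 52844 CPM in the VTA. Of 11 microglia genes, 3 were lower in the core than in the VTA and none higher, or 6 without replicate 2 of cross A, and 6 of 10 endothelial and mural genes were lower. Of 11 general neuron genes, 4 were higher and 4 lower in the core. Without the names known only from the cross comparison, 3 of 4 neuron genes were higher and 0 lower. The microglia count with all libraries and the counts of the 11 neuron genes were near the shares over all genes, 31.1% lower and 30.7% higher. The share without replicate 2 of cross A is not given, so the 6 microglia genes have none of their own fit beside them. The summed level of the astrocyte identity list was 5715 to 6517 CPM in the core, 5488 to 6410 CPM in the shell and 6424 to 7795 CPM in the VTA.

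Between core and shell, 2 astrocyte list genes were higher in the core and 17 lower (edgeR; 20 of the 68 called by DESeq2), beside 7.88% and 7.21% of all tested genes. Neuron genes lay the other way in the same libraries, with 7 of 11 general neuron genes and 5 of 10 medium spiny neuron genes higher in the core and none lower, and their part in the astrocyte values was not tested. The strongest astrocyte list genes were Gli1, a transcription factor of the hedgehog pathway, with 16.2 ± 3.26 CPM in the core and 37.2 ± 4.67 CPM in the shell (log2 -1.20, adjusted p = 8.05e-07, edgeR), and Synm, which encodes the filament protein synemin, with 30.7 ± 4.45 CPM and 51.9 ± 7.61 CPM (-0.76, adjusted p = 1.68e-05, edgeR). Also lower in the core were Serping1, a complement inhibitor gene (log2 -0.75), the connexin gene Gjb6 (-0.43), Fxyd1, a regulator of the sodium pump (-0.41), and Cxcl14 (-0.49). Gfap, higher in the shell, thus lay on the same side as all 6 reactive and filament genes that were called (Serping1, Cp, Synm, Vim, S100a10 and Hspb1). Slc1a2, higher in the core, lay with Slc15a2, a peptide transporter gene (0.37, adjusted p = 0.0347, edgeR), and Sparcl1, the gene of the matrix protein hevin (0.17, adjusted p = 0.0326, edgeR), and opposite to Glud1 (-0.21) and Slc7a11 (-0.26). Without rat 1, edgeR called 1 identity gene higher in the core and 1 glutamate gene lower.

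**Figure D3:**
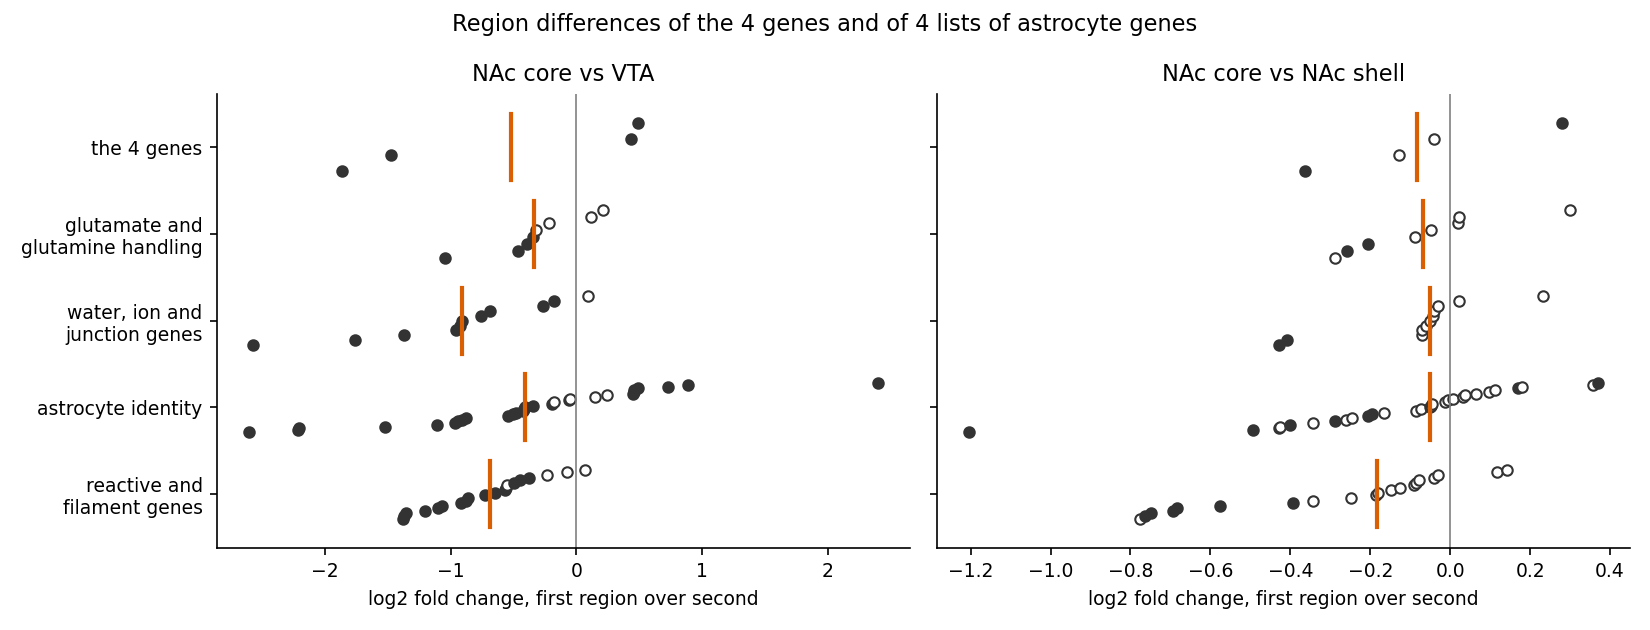
Log2 fold change (x axis) of the 4 genes and of each gene in the 4 astrocyte lists (rows), for the core over the VTA and the core over the shell. Filled points have an adjusted p under 0.05 in edgeR, and the orange line is the median of a list. Against the VTA most list genes lie left of 0 with Gfap and Aqp4, and Slc1a2 and Slc1a3 lie right of it at 0.49 and 0.43.

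The crosses were compared next, since the study set them side by side. No member differed between cross A and cross B in any region by edgeR after adjustment. The comparison called 0.0184% of all genes in the core, 0.00614% in the shell and 0% in the VTA, and 0 of 4 members in each, both by edgeR and by DESeq2. At an unadjusted p under 0.05, edgeR gave 1 member in the core and 0 in the shell and the VTA, beside 9.36%, 4% and 5.7% of all genes, and DESeq2 gave 2, 0 and 0 members. Over the 68 astrocyte list genes the calls were 0 in every region by both tools, with 16, 5 and 5 at an unadjusted p under 0.05 in edgeR. Of the 68 symbols, 13 were known only from the study's table of this cross comparison, and without them the numbers were 8, 3 and 2 of 55.

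Slc1a3 in the core was the member below that unadjusted level. Cross A had 702 ± 28 CPM and cross B 635 ± 24.2 CPM (SD, n = 4, log2 A over B 0.15 ± 0.06, unadjusted p = 0.0222, adjusted p = 0.461, edgeR). The lowest cross A value, 674 CPM, was above the highest cross B value, 653 CPM, and such a separation was found in 5.43% of all genes. Among saline-injected rats alone, which were prepared in a single batch, the difference was 0.16 ± 0.08, and among nicotine-injected rats 0.12 ± 0.07. In the shell (0.05 ± 0.06) and the VTA (0.10 ± 0.09) the crosses overlapped, and no other member separated the crosses in any region (2.57% of all genes did in the shell and 3.27% in the VTA).

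The mean of Aqp4 was lower in cross A than in cross B in each region, but no difference passed the test. The cross A and cross B means were 374 ± 66.7 CPM and 434 ± 17.9 CPM in the core, 410.4 ± 43.0 CPM and 469.5 ± 68.5 CPM in the shell, and 1017 ± 265 CPM and 1252 ± 94.1 CPM in the VTA (SD, n = 4). The log2 differences were -0.21 ± 0.10, -0.20 ± 0.10 and -0.29 ± 0.19 (adjusted p = 0.538, 0.995 and 0.815, edgeR). Without replicate 2 of cross A the VTA value was -0.12. With preparation batch as a covariate it was -0.56 ± 0.20 (adjusted p = 0.798, edgeR), against -0.08 in the core and -0.05 in the shell. In the NAc that covariate leaves only the saline-injected rats to compare the crosses. In the VTA it leaves replicates 11, 13 and 15 of 1 batch and replicates 2 and 16 of another, so -0.56 rests in part on replicate 2. With any 1 library left out the core value lay between -0.34 and -0.13 and the shell value between -0.28 and -0.13. The same 8 rats supplied all 3 regions, so these are not 3 independent results. Among nicotine-injected rats alone, who differ in preparation batch as well as in cross, they were -0.37, -0.36 and -0.45, and none passed (adjusted p = 0.353 in the core and 0.171 in the shell, edgeR). Among saline-injected rats, prepared together in the NAc, they were -0.08, -0.04 and -0.16. Cross and batch cannot be told apart among the nicotine-injected rats.

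Gfap and Slc1a2 gave no steady direction between the crosses. The log2 difference of Gfap, A over B, was 0.03 ± 0.10 in the core, -0.04 ± 0.17 in the shell and -0.35 ± 0.33 in the VTA, where it rests on replicate 2 of cross A and was -0.087 without it. With preparation batch as a covariate that value was -0.81 (adjusted p = 0.798, edgeR). This covariate leaves replicates 11, 13 and 15 of 1 batch and replicates 2 and 16 of another to compare the crosses, so -0.81 also rests in part on replicate 2. With any 1 library left out the VTA value lay between -0.54 and -0.087. With 1 rat left out in turn, the core and shell values of Gfap fell on either side of 0. Slc1a2 gave 0.11 ± 0.10, -0.02 ± 0.10 and 0.12 ± 0.26. The 4 cross A libraries of the VTA spanned 11.4 to 25.8 CPM of Slc1a2, and cross B lay inside that span.

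Rats labelled as injected with nicotine and with saline gave no called difference in the 4 genes. The comparison of nicotine with saline called 0% of all genes in each region and 0 of 4 members, by edgeR and by DESeq2, with 0 members at an unadjusted p under 0.05 by either (6.39%, 2.95% and 2.03% of all genes by edgeR in core, shell and VTA). In the core, Gfap had 587 ± 45.2 CPM after nicotine and 643 ± 83.9 CPM after saline (SD, n = 4, log2 -0.13 ± 0.09). Aqp4 had 385 ± 62.0 CPM and 423 ± 48.8 CPM (-0.13 ± 0.11), Slc1a2 23.5 ± 1.09 CPM and 22 ± 2.04 CPM (0.09 ± 0.10), and Slc1a3 651 ± 39.2 CPM and 687 ± 44.8 CPM (-0.08 ± 0.07). Nicotine and saline libraries overlapped for all 4 genes in every region (3.72%, 2.07% and 1.26% of all genes did not).

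In the shell the log2 differences were 0.10 ± 0.16 for Gfap, -0.02 ± 0.12 for Aqp4, -0.06 ± 0.10 for Slc1a2 and -0.00357 ± 0.06 for Slc1a3. In the VTA they were -0.10 ± 0.35, -0.30 ± 0.19, -0.12 ± 0.26 and -0.07 ± 0.10, and without replicate 2 of cross A Gfap stood at 0.17 and Aqp4 at -0.13. Gfap in the VTA had the widest error of the 12 values, and a difference within these errors was not detectable with 4 rats a group. In the NAc the preparation batches follow the injections, and the 2 cannot be told apart. Of the 68 astrocyte list genes edgeR called 0 in each region (5, 5 and 0 at an unadjusted p under 0.05), and DESeq2 called 1 in the core, Kcnj10 (log2 -1.24, adjusted p = 0.0403, against 0.766 in edgeR), which is named after its values were seen.

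**Figure D4:**
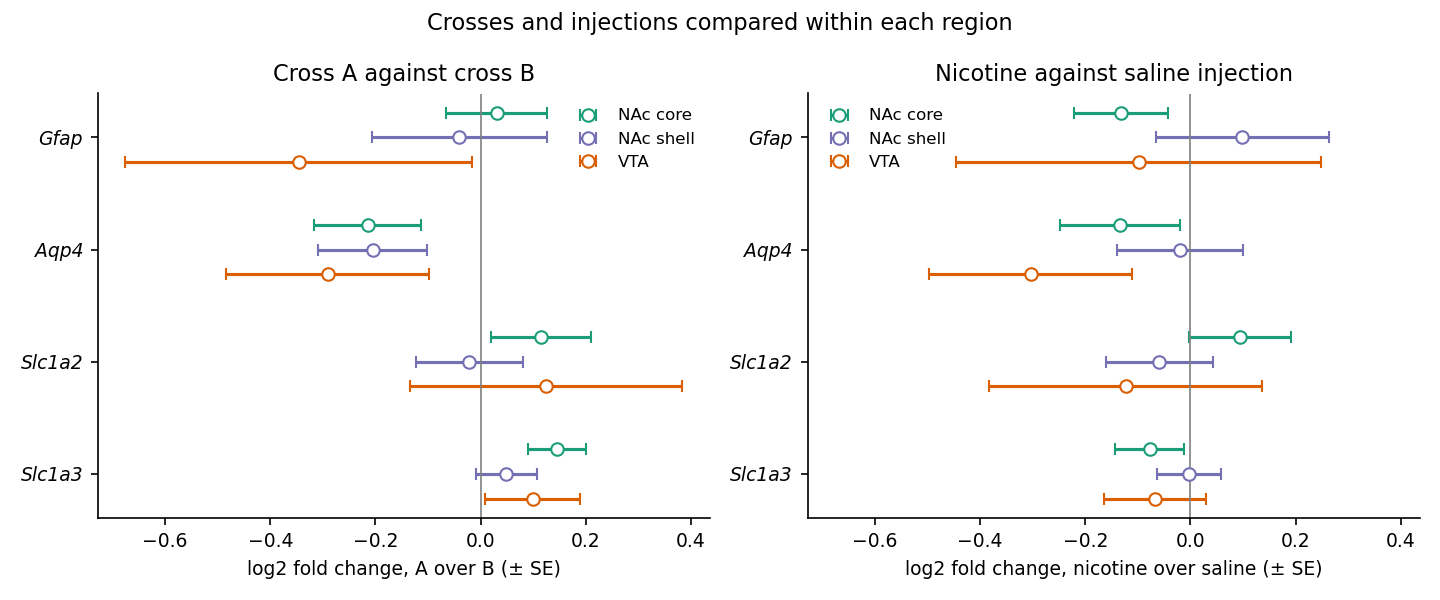
Log2 fold change ± SE (x axis) of each gene (y axis) by region (colours), for cross A over cross B and for nicotine over saline injection, with 4 libraries a group. All points are open, meaning an adjusted p of 0.05 or more in edgeR. Slc1a3 in the core (0.15 ± 0.06) and Aqp4 (-0.21 ± 0.10 in the core) are the points farthest from 0 for their error, and the VTA bars of Gfap are the longest.

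Whether the injection acted differently in the crosses, or the crosses differed more in a region, was tested by interaction terms. The cross by injection term called 0.00614% of genes in the core, 0.35% in the shell and 0% in the VTA, and 0 of 4 members in each by edgeR and by DESeq2, with 1, 0 and 0 members at an unadjusted p under 0.05 by both tools (5.89%, 7.42% and 5.39% of all genes by edgeR). Gfap in the core was that member (log2 -0.37 ± 0.15, adjusted p = 0.836, edgeR). Its means were 554 CPM after nicotine and 689 CPM after saline in cross A, and 619.7 CPM and 598 CPM in cross B, with 2 rats in each. Of the 68 astrocyte list genes edgeR called 0 in each region for this term (6, 8 and 2 at an unadjusted p under 0.05), and DESeq2 called 0 in the core and the VTA and 2 in the shell. These were Slc15a2 (log2 1.00, adjusted p = 0.00343, DESeq2, against 0.143 in edgeR) and Fam107a (log2 0.65, adjusted p = 0.0034, DESeq2, against 0.164 in edgeR), which are named after their values were seen. The cross by region terms called 0% of genes and 0 of 4 members by edgeR, also at an unadjusted p under 0.05 (2.19%, 9.15% and 5.84% of all genes for core against shell, core against VTA and shell against VTA), and 0 by DESeq2, which gave no adjusted p for 1 member in core against VTA. The term for Gfap in core against VTA was 0.37 ± 0.36 (adjusted p = 0.758, edgeR), and 0.11 without replicate 2 of cross A in the VTA.

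Co-variation of the 4 genes among the 8 rats was examined region by region, because a correlation over all 24 libraries would mainly restate the region means. Each of the 18 relations (6 pairs in 3 regions) was tested by exact permutation of all 40320 pairings, with Benjamini-Hochberg adjustment over the 18. Gfap and Slc1a3 ran against each other in the VTA, with Pearson's r = -0.81 (exact permutation p = 0.00590, adjusted p = 0.106) and Spearman's rho = -0.93 (exact permutation p = 0.00223, adjusted p = 0.0402). The r was -0.63 without the 2 rats farthest from the median of Gfap, -0.90 without replicate 2 of cross A, and between -0.90 and -0.80 with any 1 rat left out. With the mean of each cross subtracted it was -0.77 (exact permutation p = 0.0885 over the 576 pairings within crosses, adjusted p = 0.414). In the core and the shell the r of the same genes was positive, at 0.29 and 0.26 (rho -0.02 and 0.10). The VTA pair was the 1 of 18 relations to pass adjustment by rank, and 0 of 18 passed by Pearson's r.

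The relation of Gfap and Aqp4 was positive in the NAc core and did not pass adjustment. There r was 0.72 (exact permutation p = 0.0438, adjusted p = 0.197) and rho 0.81 (exact permutation p = 0.0218, adjusted p = 0.196). The r was 0.37 without the 2 rats farthest from the median of Gfap and lay between 0.57 and 0.81 with any 1 rat left out. With the mean of each cross subtracted it was 0.94, which did not pass over the same 576 pairings (exact permutation p = 0.0139, adjusted p = 0.25). In the shell r was 0.67 (exact permutation p = 0.0804, adjusted p = 0.289), with rho 0.52 (exact permutation p = 0.197). In the VTA r was 0.91 but rho 0.21 (exact permutation p = 0.0298 and 0.619), and r became -0.14 without the 2 farthest rats and 0.37 without replicate 2 of cross A, on which it rests.

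In the VTA Slc1a2 and Slc1a3 had r = 0.75 (exact permutation p = 0.0359, adjusted p = 0.197) and rho = 0.64 (exact permutation p = 0.0962, adjusted p = 0.433), with r = 0.54 without the 2 farthest rats. As a description over the 23 libraries without VTA cross A replicate 2, with the mean of each region subtracted, r was 0.57 for Gfap and Aqp4, 0.45 for Slc1a2 and Slc1a3, -0.48 for Gfap and Slc1a2, -0.18 for Gfap and Slc1a3, -0.13 for Aqp4 and Slc1a2 and -0.24 for Aqp4 and Slc1a3. With all 24 libraries these r were, in the same order, 0.81, 0.49, -0.45, -0.41, -0.25 and -0.44. The points share rats, preparation batches and sequencing depth. These signs did not hold within every region. Slc1a2 and Slc1a3 had r = -0.26 in the shell and 0.28 in the core, and Gfap and Slc1a2 had r = 0.30 in the core, -0.46 in the shell and -0.51 in the VTA.

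**Figure D5:**
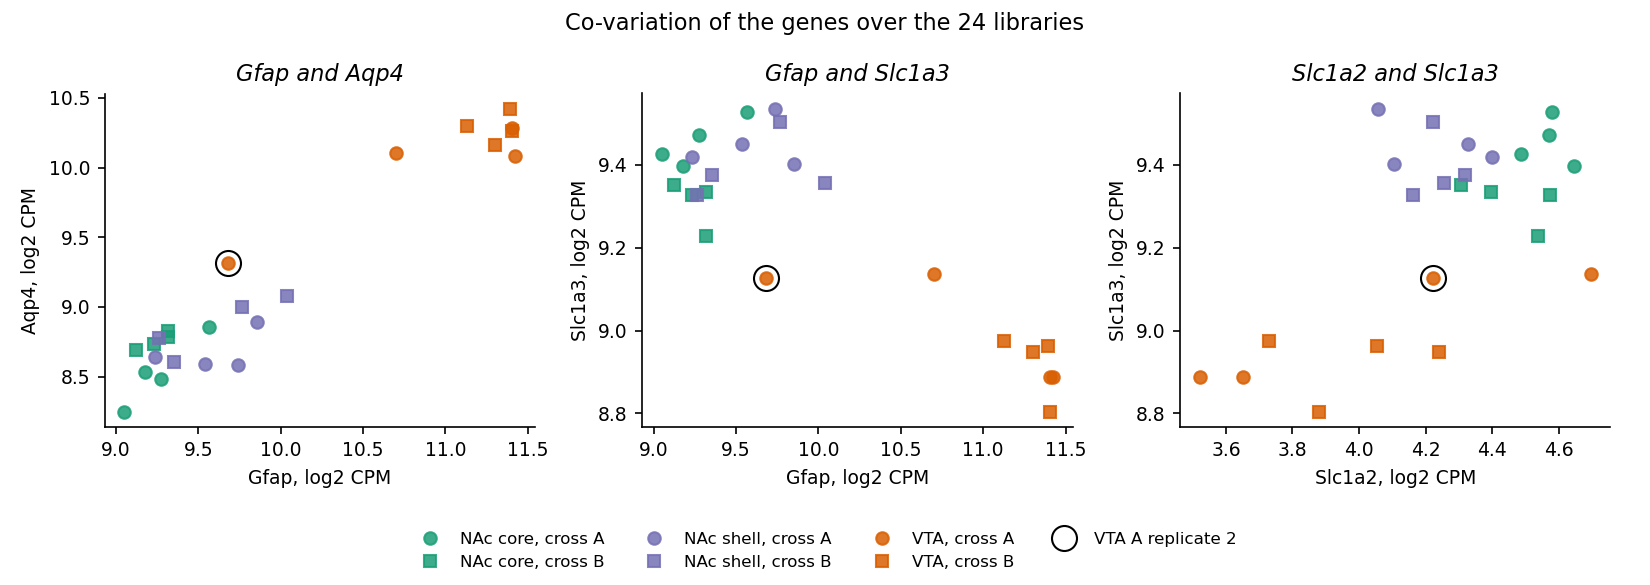
Log2 CPM of pairs of genes in the 24 libraries, Gfap with Aqp4, Gfap with Slc1a3 and Slc1a2 with Slc1a3, coloured by region, with circles for cross A and squares for cross B. The ring marks VTA cross A replicate 2. In the panels with Gfap the VTA libraries other than the ringed one lie away from the NAc libraries, while core and shell overlap, and in the VTA Slc1a3 is lower where Gfap is higher (r = -0.81, 8 rats).

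Genes whose levels most resembled each member were ranked among 5726 named genes of at least 10 CPM by r over the same 23 centred libraries. For Gfap they were Spsb1 (r = 0.86), an adaptor of a ubiquitin ligase, Tp53inp2 (0.81), a regulator of autophagy, and Cav2 (0.81), a caveolin gene, and Aqp4 took place 133. For Aqp4 they were Ccnc (0.83), the gene of cyclin C, Abhd3 (0.82) and Abhd17b (0.79). With VTA cross A replicate 2 added, Ccnc fell to 0.47 (place 586) and Abhd17b to 0.30 (place 1202), and Abhd3 stood at 0.80 (place 10). For Slc1a2 they were Pde4dip (0.91), Usp31 (0.89), a deubiquitinase gene, and Acvr1b (0.84), an activin receptor gene. For Slc1a3 they were March6 (0.82), a ubiquitin ligase gene, Atrnl1 (0.81) and Kcnf1 (0.80), a potassium channel subunit gene. None of these 12 belongs to an astrocyte list used here. Those lists hold few of the 5726 ranked genes. They hold 5 for glutamate and glutamine handling, 10 for water, ion and junction functions, 27 identity genes and 14 reactive and filament genes. With so few, their absence among the 12 is not read as a lack of likeness to astrocyte genes.

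The marker lists were set beside the members in the same way. The median r of Gfap with 14 oligodendrocyte genes was 0.52, with 14 reactive and filament genes 0.33 and with 10 medium spiny neuron genes -0.37, against 0.01 over all 5726. Slc1a2 had a median r of -0.50 with the reactive and filament genes and 0.34 with 11 general neuron genes. The same quantities for Slc1a3 were -0.04 and 0.01. The median r with 27 astrocyte identity genes was 0.22 for Gfap, 0.16 for Slc1a3, -0.04 for Aqp4 and -0.11 for Slc1a2. These r values are descriptions over libraries that share rats, batches and depth.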

How the data were processed

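Estimated counts were deposited as whole numbers for 17323 genes in 24 libraries. Per the study's methods, the authors trimmed reads with fastp 0.20.0, quantified them with Salmon 0.12.0 against Rnor 6 and summed transcripts to genes with tximport, without normalization. Salmon splits shared reads by estimation. All columns matched a sample (0 left over). The table holds gene IDs alone, so symbols came from the study's supplementary tables. Aqp4, Slc1a3 and some list genes are named there only in a comparison of the crosses made on these libraries. Promoters are from RefSeq (GRCr8).

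Genes with a median-ratio normalized count over 10 in at least 3 libraries were tested (1034 were left out). Tests were edgeR 4.0.16 quasi-likelihood fits (R 4.3.3, TMM) to the libraries of the groups compared, two-sided, with Benjamini-Hochberg adjustment over all tested genes and a threshold of 0.05. Log2 CPM used a prior count of 2. The fits were tested on simulated counts. Exact permutation tests used scipy 1.17.1. Alternatives were DESeq2 1.42.0, median-ratio scaling, no filter, covariates, single injection groups, each rat left out, and rat as a replicate block. Labels do not say that rats of a group were littermates or not, so p-values measure the spread between these rats.

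Libraries with the same number are taken to come from 1 rat. Their deviations from the group means correlated at -0.11 to 0.12 between core and shell, -0.01 to 0.18 between core and VTA and -0.07 to 0.13 between shell and VTA. The values do not show the pairing, which rests on the sample numbers alone.

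Members and lists were chosen with earlier results of these data known. Named list genes are, per list and region comparison, the 2 with the largest log2 change in each direction among those called, and any called in a cross or injection comparison. The 3 genes of highest r are named for each member. Glul, Dmd, the called reactive genes and the 7 identity genes higher in the core were added after their values were seen.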

Additional observations from a re-analysis of the deposited data

How the results depend on the processing

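Among values of single genes, 446 kept their direction and side of the threshold under the alternatives, 26 changed sign, and 3 lost and 1 gained a call. Among summary counts 217 kept within 1.5 times and 3 moved. Members called between core and shell ranged from 1 to 2 when 1 rat was left out, Gfap being the call lost. With rat as a replicate block the paired log2 differences of Gfap were -0.34, -1.79 and -1.47 (core against shell, core against VTA, shell against VTA), and no member call changed, with 2, 4 and 3 called. None of the sign changes concerned a called gene. Gfap between crosses in the core was -0.17 in nicotine-injected rats alone, and in the shell 0.00982 in saline-injected rats alone. Slc1a3 in the shell was -0.035 with preparation batch as a covariate and -0.025 in saline-injected rats alone. Both rest on the saline-injected rats, which are the only ones whose NAc batch holds both crosses. Slc1a2 in the VTA was -0.13 in nicotine-injected rats. Leaving out 1 rat gave ranges across 0 for the crosses of -0.085 to 0.099 (Gfap, core), -0.15 to 0.12 (Gfap, shell), -0.081 to 0.034 (Slc1a2, shell) and -0.15 to 0.28 (Slc1a2, VTA). For the injections they were -0.051 to 0.21 (Gfap), -0.14 to 0.055 (Aqp4) and -0.039 to 0.024 (Slc1a3) in the shell, and -0.23 to 0.17 (Gfap, 0.17 without cross A replicate 2) and -0.25 to 0.15 (Slc1a2) in the VTA. With all 24 libraries, 0 of 3 most similar genes stayed for Gfap and Aqp4 and 2 of 3 for Slc1a2 and Slc1a3. Interactions, co-variation and list counts without that VTA library alone, and list counts without rat 1, were chosen after seeing the data. Slc1a2 rests on few counts, and 4 rats a group limit the cross and injection tests. The cause of these changes was not tested.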
